A study of Homo sapiens with 6 samples.

Results

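Of the 24308 benzoylation (Kbz) peaks found in sodium benzoate (SB)-treated HepG2 cells, 1179 shared 0 bp with every acetylation (Kac) peak of control and of SB-treated cells, a share of 4.85% (95% Wilson interval, 4.59 to 5.13). These Kac-free Kbz peaks were chosen by the measured positions of the peaks in the 3 lists, so the absence of Kac from them is the rule and not a finding. The comparison was with the other 23129 Kbz peaks, each of which shared at least 1 bp with a Kac peak. HepG2 is a cell line from a human liver tumour. The groups were input, Kac and Kbz libraries of control cells and of cells given 10 mM SB for 24 h, with 1 library per group and pan antibodies that bind the modified lysine on any histone. The labels state that peak calling on control Kbz gave none, so the Kac-free Kbz peaks have no untreated counterpart, and the input libraries were not analysed here. With 1 library per group no difference could be set against replicate error, and every interval below covers counting error over peaks or windows only.

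Lysine benzoylation joins a benzoyl group, taken from benzoyl-CoA, to the lysine side chain, which like acetylation removes its positive charge but adds a bulky aromatic ring. Histone acetylation is found mostly at promoters and enhancers of active genes. SIRT2 is known to remove benzoyl groups from histones, whereas acetyl groups are removed by many deacetylases.

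The files give a position, a fold, −log10 p and −log10 q for each peak and no read totals, so sequencing depth was unknown. The fold is the authors' ratio of read density in the peak over the background, averaged along the peak. A Kac peak list that was called from more reads could leave fewer Kbz peaks without Kac. The labelled cell type was checked against marker genes. Only 4 of 20 genes of liver products had a Kbz peak at a promoter, 11 had SB Kac and 10 control Kac, and no Kac peak lay at the promoters of ALB, APOB, FGA, FGB, FGG or SERPINA1, which encode major plasma proteins of hepatocytes. Of 7 liver transcription factors, 6 had Kac at a promoter in each condition. Of 14 transcription factors and receptors of kidney development, 13 had Kac in each condition and 12 had Kbz. Neuronal markers had SB Kac at 8 of 14 genes and blood markers at 5 of 10. These lists thus did not single out liver, and what this means for the results below was not tested. No Kac-free Kbz peak lay in or within 3 kb of any of the 51 genes of the liver, kidney and blood lists, against 3.23% of all protein-coding genes, a share at which 0 of 51 says little.

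Some of the strongest Kac-free Kbz peaks shared a sequence feature. Of 11 of the 12 peaks with the highest fold, 5 held dense arrays of the palindromic word TAATTA. Stretches from 4 of these peaks, and from 1 weaker peak, are printed here because the letters are the feature. Each gives the 180 bases on the plus strand of hg38 where TAATTA was densest, with every TAATTA in capitals. The first lies in an intron of RUNX1, a transcription factor of blood cell formation (chr21:35926071-35926250). The next lies in an intron of GLRA3, a glycine receptor subunit (chr4:174699757-174699936). Those on chromosomes 7 (chr7:65436372-65436551) and 5 (chr5:180776379-180776558) are intergenic. The last lies in an intron of MAGI3, a scaffold protein of cell junctions (chr1:113416137-113416316), and is shown because its peak held the most copies of any Kac-free Kbz peak.
RUNX1 intron: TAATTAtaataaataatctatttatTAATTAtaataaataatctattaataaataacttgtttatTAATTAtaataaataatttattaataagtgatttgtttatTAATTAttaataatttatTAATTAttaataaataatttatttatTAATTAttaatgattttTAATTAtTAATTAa
GLRA3 intron: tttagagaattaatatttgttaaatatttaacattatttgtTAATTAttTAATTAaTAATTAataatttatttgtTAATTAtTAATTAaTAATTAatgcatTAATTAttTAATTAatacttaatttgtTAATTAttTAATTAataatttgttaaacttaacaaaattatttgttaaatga
Chromosome 7 intergenic: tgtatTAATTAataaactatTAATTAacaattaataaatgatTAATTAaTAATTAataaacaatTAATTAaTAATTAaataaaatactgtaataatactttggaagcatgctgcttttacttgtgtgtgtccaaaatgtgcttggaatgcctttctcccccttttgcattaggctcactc
Chromosome 5 intergenic: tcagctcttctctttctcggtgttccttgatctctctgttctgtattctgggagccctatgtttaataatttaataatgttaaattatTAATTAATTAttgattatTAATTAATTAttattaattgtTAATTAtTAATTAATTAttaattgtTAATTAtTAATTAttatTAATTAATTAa
MAGI3 intron: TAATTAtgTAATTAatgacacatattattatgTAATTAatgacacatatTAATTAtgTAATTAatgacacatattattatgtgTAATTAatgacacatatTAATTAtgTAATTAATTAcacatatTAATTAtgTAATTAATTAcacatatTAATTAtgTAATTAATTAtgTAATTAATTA

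The arrays were not copies of a single repeat unit: the MAGI3 stretch repeats a longer unit around the word, and the RUNX1 stretch alternates it with runs of taataa. GC content of the printed stretches was 4.44% in RUNX1, 8.33% in GLRA3, 13.9% in MAGI3, 18.3% on chromosome 5 and 25% on chromosome 7. For contrast, 2 strong peaks without such arrays are shown, from an intron of MYO1E, an unconventional myosin (chr15:59186148-59186327), and from an intergenic stretch of chromosome 7 (chr7:53481941-53482120). Their central 180 bases had GC contents of 39.4% and 37.2% and held no TAATTA. The array stretches were picked where a word of A and T is densest, so their low GC partly follows from that choice. Over whole peaks GC was 28.2% in RUNX1, 22.4% in GLRA3, 16.2% in MAGI3, 31.2% on chromosome 5 and 34.3% on chromosome 7. Over the 2 whole peaks without arrays it was 35.1% in MYO1E and 37.8% on chromosome 7, a smaller contrast.
MYO1E intron: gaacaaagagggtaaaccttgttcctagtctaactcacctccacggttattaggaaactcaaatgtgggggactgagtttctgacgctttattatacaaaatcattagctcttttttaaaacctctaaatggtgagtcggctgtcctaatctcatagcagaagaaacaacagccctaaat
Chromosome 7 without array: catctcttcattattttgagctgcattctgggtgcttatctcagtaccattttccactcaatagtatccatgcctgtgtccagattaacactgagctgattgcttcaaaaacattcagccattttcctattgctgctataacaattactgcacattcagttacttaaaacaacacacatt

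The RUNX1 array peak (chr21:35926071-35926587) had the highest fold of all Kac-free Kbz peaks, 10.5 with a −log10 q of 41.9, which put it at percentile 99.8 of the Kbz list. It held 8 copies of TAATTA, and the nearest Kac peak was a control Kac peak 332 bp away, while the nearest SB Kac peak was 13276 bp away. It was thus among the strongest of the whole Kbz list. The GLRA3 peak (chr4:174699619-174700074) had a fold of 7.54, 10 copies and a distance of 77846 bp to Kac. The array peak of chromosome 7 (chr7:65436235-65436689) had a fold of 7.27 and lay 1267 bp from Kac. The one of chromosome 5 (chr5:180776216-180776722) had a fold of 6.81 with 11 copies and lay 7868 bp from Kac. The MAGI3 peak (chr1:113415887-113416412) had a fold of 5.22 and 36 copies.

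The other strong peaks carried at most 1 copy. The MYO1E peak (chr15:59186033-59186442) had a fold of 7.80 and the intergenic peak of chromosome 7 (chr7:53481825-53482237) a fold of 7.61 at 871831 bp from Kac. A peak on chromosome 16 (chr16:13634154-13634609), in an intergenic stretch whose nearest protein-coding gene is ERCC4, a DNA repair endonuclease, had a fold of 6.36. It lay 239482 bp from Kac and held 1 copy. A peak on chromosome 21 (chr21:30726459-30726880), 7682 bp from the start of the hair keratin-associated gene KRTAP21-3, had a fold of 6.15 and lay 955 bp from Kac. The last of the group lay in introns of ADGRB3, an adhesion receptor of the brain (chr6:68746582-68746930, fold 6.08), and of KCNB2, a voltage-gated potassium channel on chromosome 8 (fold 5.87). Of these 11, 6 were intronic and 5 intergenic by GENCODE 44; the peak left out of the 12 is not counted here.

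Arrays were then counted in all lists. An array was defined as 5 or more copies of TAATTA, overlapping copies counted; both the word and this number were chosen after the sequences of the strongest peaks had been seen. In the central 300 bp, where every peak is compared over the same length, 17 of 1179 Kac-free Kbz peaks held an array, or 1.44% (0.902 to 2.30). The count was 0 of 23129 for the other Kbz peaks, which allows a share of up to 0.0166% by the Wilson interval. It was 1 of 63282 for SB Kac peaks and 3 of 70326 for control Kac peaks. Of 35116 RefSeq promoter sequences of 300 bp (GRCh38.p14), 0 held an array. Over the whole peak, 21 Kac-free Kbz peaks held an array (1.78%, 1.17 to 2.71), against 28 of the other Kbz peaks (0.121%, 0.0838 to 0.175). Whole Kac peaks held an array in 801 of 63282 cases in SB cells (1.27%) and in 929 of 70326 in control cells (1.32%), both inside the interval of the Kac-free Kbz peaks, so the contrast with Kac was limited to the central 300 bp. The 28 other Kbz peaks were long, with a median of 4572 bp, and none of them had the array at its centre. The central 300 bp make up more of a Kac-free Kbz peak, with a median length of 477 bp, than of another Kbz peak, with 1145 bp. The comparison in the centre thus also depends on length. The 21 include the peaks from which the word was chosen.

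Since the word was picked from the strongest peaks, the high fold of those peaks is no finding. The 16 array peaks outside the 12 highest folds had a median fold of 3.95 (quartiles 3.53 to 4.40), against 2.93 (2.79 to 3.32) for the 1151 other Kac-free Kbz peaks outside them. These groups were not matched for length. Kac-free Kbz peaks under 500 bp had a median fold of 3.24, and longer ones 2.84. Of these 16, 5 ranked from 21 to 100 by fold, 8 from 101 to 300 and 3 lower. The following holds for all 21. They were spread over 14 chromosomes, with 10 in introns, 9 in intergenic stretches and 2 at promoters. Their length was 433 bp at the median, and 20 of 21 lay more than 1 kb from any Kac peak. This did not set them apart, since only 9.58% of all Kac-free Kbz peaks lay within 1 kb of Kac. Within 10 kb of Kac lay 9 of the 21, against 44.1% of all Kac-free Kbz peaks. The median distance to Kac was 12566 bp for the 21 and 14886 bp for Kac-free Kbz peaks without an array. The weakest of the 21, in an intron of COPB2-DT, a noncoding RNA, had a fold of 2.93. The longest, on chromosome X (chrX:1164837-1166036), covered 1200 bp and held 32 copies.

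**Figure D1:**
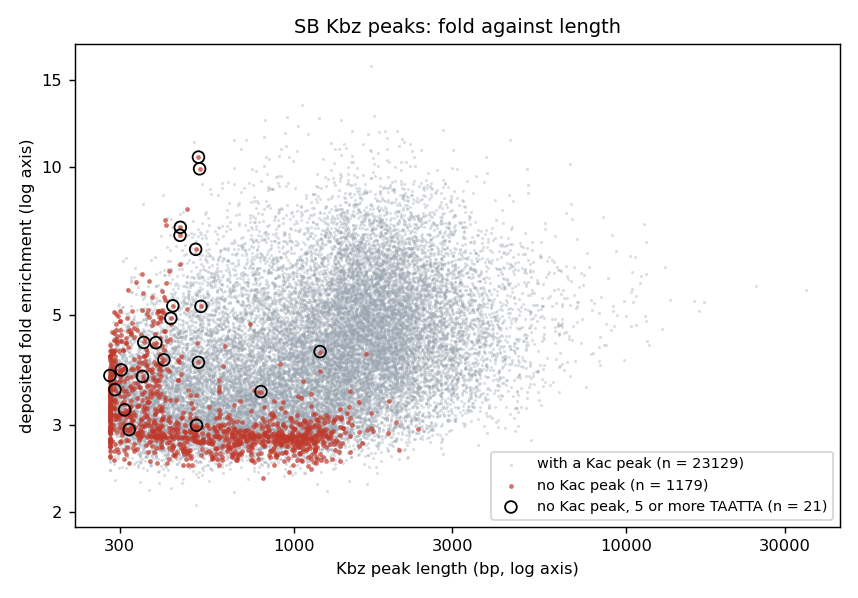
Deposited fold against length of all SB Kbz peaks, both on log axes, with 1179 Kac-free Kbz peaks in red, 23129 other Kbz peaks in grey and rings around the 21 Kac-free peaks with 5 or more copies of TAATTA. Ringed peaks reach a fold of 10.5 at lengths near 500 bp, where few other Kac-free peaks are found, and most longer Kac-free peaks lie along the lower edge near a fold of 2.84.

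The reverse question was how much of the genome with such arrays was under Kbz. The genome was cut into consecutive windows of 300 bp. Of windows with 0 to 4 copies, 0.370 per 1000 lay under a Kac-free Kbz peak. This rose to 6.73 per 1000 (3.42 to 13.2) at 5 to 6 copies, 25.1 (12.8 to 48.7) at 7 to 9, 33.1 (12.9 to 81.9) at 10 to 14 and 69.8 (24.0 to 186) at 15 and over, the last from 3 of 43 windows. The other Kbz peaks lay over 13.2 per 1000 windows with 0 to 4 copies, 1.68 at 5 to 6, 0 of 319 windows at 7 to 9, 8.26 at 10 to 14 and 0 of 43 beyond. All Kbz peaks together thus covered 13.6, 8.42 (4.58 to 15.4), 25.1, 41.3 (17.8 to 93.1) and 69.8 per 1000, with no rise up to 6 copies. Most windows with arrays had no Kbz peak. Without regard to GC, SB Kac lay over 46.1 per 1000 windows with 0 to 4 copies, 9.26 at 5 to 6, 3.13 at 7 to 9 and 0 of 164 windows with 10 copies or more. Control Kac fell from 52.0 per 1000 to 17.7, 18.8 and 0 over the same steps. The peaks from which the word was chosen are counted in all these windows. Windows of 1 peak are neighbours and not independent, and whether 50-bp reads could be placed uniquely in each array was not known from the files.

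**Figure D2:**
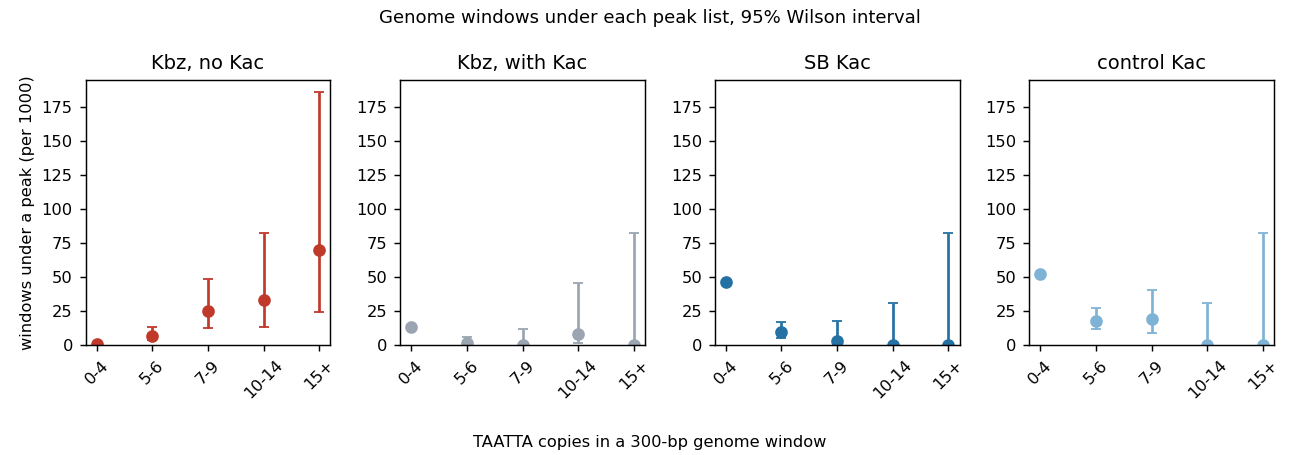
Windows of 300 bp under a peak, per 1000 windows, by the number of TAATTA copies in the window, with 1 panel per peak set and 95% Wilson intervals. The share under Kac-free Kbz peaks rises from 0.370 to 69.8 per 1000, while the share under SB Kac goes from 46.1 to 0; windows are not matched for GC here.

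Windows of like GC content were then compared. Among windows under 25% GC, 3 of 69463 without TAATTA lay under a Kac-free Kbz peak (0.0432 per 1000, 0.0147 to 0.127). The count was 4 of 40775 with 1 to 2 copies and 0 of 3096 with 3 to 4. With 5 or more copies it was 15 of 864 (17.4 per 1000, 10.5 to 28.4), and the other Kbz peaks covered 0 of these 864. Between 25 and 30% GC the Kac-free and the other Kbz peaks each covered 2 of 270 windows with 5 or more copies (7.41 per 1000), against 0.112 and 1.04 per 1000 without the word. Between 30 and 35% GC the Kac-free shares were 0.211 per 1000 without the word and 26.2 (11.2 to 59.8) with 5 or more copies, the latter from 5 of 191 windows. Between 35 and 40% GC it was 0.283 per 1000 against 0 of 134 windows, and between 40 and 50% it was 0.437 against 1 of 199. With 3 to 4 copies the Kac-free counts were 6 of 5767 between 25 and 30% GC and 2 of 4884 between 30 and 35%. They were 2 of 2558 between 35 and 40% and 0 of 1916 between 40 and 50%. Kac showed no steady fall with copies at like GC. From 0 to 5 or more copies, control Kac went from 7.87 to 8.10 per 1000 under 25% GC, from 11.99 to 29.6 between 25 and 30%, from 19.6 to 10.5 between 30 and 35% and from 27.1 to 29.9 between 35 and 40%. SB Kac went from 6.90 to 2.31, 11.0 to 11.1, 17.8 to 0 and 23.4 to 14.9 over the same strata. All 6-letter words of A and T, 36 when a word and its reverse complement are taken as 1, were counted in the same way. ATTAAT is a word found where copies of TAATTA overlap. Windows with 5 or more copies of it lay under a Kac-free Kbz peak in 14.1 per 1000 cases. For TAATTA it was 13.8. The next words were AATATT with 3.27 and TATTAA with 2.42 per 1000. The words overlap each other within a window, so these shares are not separate results. The peaks from which TAATTA was chosen are among those counted, so its high rank is no independent support.

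The 5 highest genes by number of Kac-free Kbz peaks in the gene body were FHL2 with 5, RBFOX1, RUNX1 and NRG3 with 4 each, and PTPRT with 3, a count shared by a noncoding RNA that overlaps FHL2. In all, 780 Kac-free Kbz peaks lay in gene bodies, spread over 834 genes (580 of them protein-coding), and only 6 genes held 3 or more. FHL2, which encodes a LIM domain protein that binds many transcription factors, had the densest run of the genome, 5 peaks within 25.4 kb, and no run elsewhere held more than 3 within 100 kb. The other runs named by the rule, on chromosome 1 (chr1:1504973-1553355 and chr1:22383708-22473010), held 3 each.

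At FHL2 each of the 5 peaks lay on a different exon. The canonical transcript has 7 exons, 5 of which hold coding sequence, and each of these 5 was touched by a Kac-free Kbz peak while the noncoding exons 1 and 2 were not. The peak at exon 3 (chr2:105386158-105386520) had a fold of 5.02 and covered 88.9% of the exon. Those at exons 4 (chr2:105373419-105373796, fold 4.37), 5 (chr2:105367539-105367933, fold 3.95) and 6 (chr2:105363061-105363571, fold 4.41) covered 100% of their exons. The peak at exon 7 (chr2:105361157-105361455, fold 3.67) covered 45.6% of it, that is 278 of 609 bp. Peaks were 299 to 511 bp long, and their centres lay 38.5 to 176 bp from the centres of the exons. The distance to the nearest Kac peak was 1810 to 8288 bp. The FHL2 promoter itself carried a Kbz peak with Kac in both conditions, and the 2 further SB Kac peaks inside the gene lay in introns. Among the 61 genes with 2 or more Kac-free Kbz peaks, 8 had each of them on an exon of some gene. The only ones of these with 3 or more were FHL2 and the overlapping noncoding RNA. The share of all Kac-free Kbz peaks that touch an exon, promoter peaks included, is not given here. The 8 of 61 therefore has no background to be read against. FHL2 was described by the rule for genes with most peaks, but its exons were compared after their positions had been seen. A peak list does not show whether the reads at these exons span splice junctions, that is, whether they came from spliced sequence or from chromatin, and this was not tested.

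**Figure D3:**
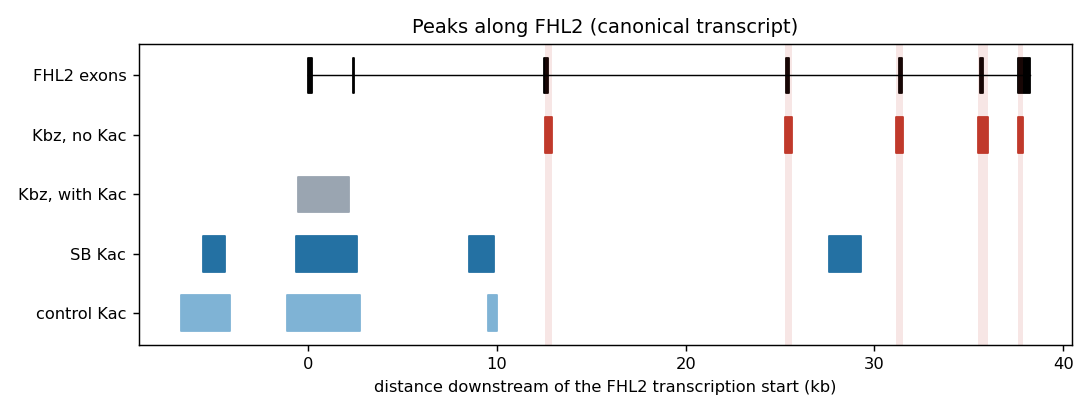
Exons of the canonical FHL2 transcript and peaks of each set by distance downstream of the FHL2 transcription start, in kb. Each of the 5 Kac-free Kbz peaks (red, shaded down the plot) stands on a coding exon, and no Kac peak stands on any of these.

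The other genes with most peaks were long genes, and their peaks were weak. RBFOX1, a neuronal splicing factor whose gene spans 2474 kb, had 4 intronic peaks with folds of 2.83, 3.43, 2.96 and 2.79. NRG3, a ligand of the ERBB4 receptor with a gene of 1112 kb, had folds of 3.11, 2.67, 2.62 and 2.75, all more than 1 Mb from Kac (1378117 to 1582539 bp). PTPRT, a receptor tyrosine phosphatase of 1117 kb, had folds of 2.78, 2.78 and 2.81. RUNX1 had 3 such peaks with folds of 2.54, 2.75 and 2.67 besides its array peak. Intronic Kac-free Kbz peaks in protein-coding genes lay in genes of 284 kb at the median (quartiles 127 to 533, n = 336). Other intronic Kbz peaks lay in genes of 158 kb (78.2 to 341, n = 2642).

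The Kac-free set was made of short peaks over a range of folds and longer peaks close to the lower limit. Of the 616 peaks under 500 bp, 20.6% (17.6 to 24.0) had a fold of 4 or more. This was close to the 20.1% (18.9 to 21.4) of the 4085 other Kbz peaks under 500 bp. Of the 563 peaks of 500 bp and over, only 10 reached a fold of 4, or 1.78% (0.968 to 3.24), against 56.0% (55.3 to 56.8) of the other Kbz peaks of that length. Their median fold was 2.84 (2.74 to 2.95). A −log10 q of at least 2, which is the FDR stated for the calls, was reached by 47.4% of the Kac-free and by 90.7% of the other Kbz peaks. Among the longest Kac-free Kbz peaks were 1 of 2074 bp on chromosome 15 (chr15:93204342-93206415, fold 2.67) and 1 of 2028 bp on chromosome 5 (chr5:174292217-174294244, fold 3.04). A longer peak has more bases that can touch Kac, so the rule itself ties membership to length. In the shortest quintile of Kbz length 12.9% of peaks were Kac-free, in the following ones 5.39%, 5.16% and 0.679%, and in the longest 0.0823%.

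Kac-free Kbz peaks lay less often at promoters at every length. In the quintile from 280 to 510 bp, 20.2% (17.2 to 23.5) of them lay within 3 kb of a transcription start site (TSS) against 45.1% (43.6 to 46.6) of the other Kbz peaks, a difference of -24.9 points (Newcombe interval, -28.2 to -21.2). The differences were -25.7 points in the second quintile, -35.6 in the third and -57.7 in the fourth. In the longest quintile, with 4 Kac-free peaks, it was -37.7 points (-72.7 to -2.66). By fold the difference grew from -17.3 points in the weakest quintile to -77.8 in the strongest, where 1 of 20 Kac-free peaks lay at a promoter. Introns held 40.4% (37.6 to 43.2) of the Kac-free and 14.9% of the other Kbz peaks, intergenic sequence 30.4% and 16.05%, and exons outside promoters 6.62% and 2.98%.

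GC content of the central 300 bp was 43.3% at the median (quartiles 37.5 to 50) in Kac-free and 57.3% (48.7 to 65.7) in other Kbz peaks. It was also lower inside each position class: 48.3% against 61.3% at promoters, 45.3% against 54.3% in exons, 41.0% against 49.0% in introns and 42.3% against 51.3% in intergenic sequence. The observed over expected ratio of CpG, the dinucleotide that is frequent in CpG islands, was 0.173 against 0.509, and at promoters 0.215 against 0.680. GC content and read recovery are linked in sequencing libraries, and their part in these differences was not tested. Nor was the part of the rule, which leaves out every Kbz peak on Kac.

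**Figure D4:**
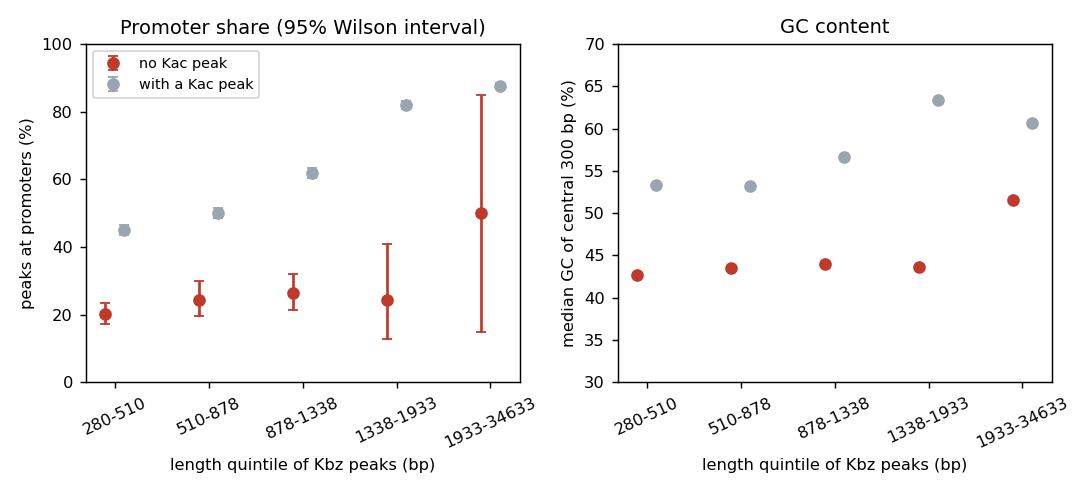
Share of peaks within 3 kb of a TSS with 95% Wilson intervals (left) and median GC of the central 300 bp (right) by quintile of Kbz peak length, for Kac-free (red) and other Kbz peaks (grey). In the shortest quintile 20.2% of the Kac-free and 45.1% of the other peaks lay at promoters, and Kac-free medians of GC are lower in each quintile.

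Short words bound by common factors followed the same split. They were searched on both strands in the central 300 bp. The SP word GGGCGG of CpG-rich promoters was held by 5.17% (4.05 to 6.59) of Kac-free and 36.2% of other Kbz peaks, against 44.95% of RefSeq promoters. The ETS word CCGGAAGT was held by 2 of 1179 against 2.58%, and the cAMP response element TGACGTCA by 1 against 0.986%. The E-box CACGTG was held by 4.50% against 9.11%, and the CTCF core by 0.509% against 1.95%. Words poor in CpG were somewhat more frequent: the GATA word AGATAA in 18.3% (16.2 to 20.6) against 10.1%, the RUNX word TGTGGT in 20.4% against 13.9%, the TEAD word GGAATG in 18.4% against 14.3% and the forkhead word TGTTTAC in 4.83% against 3.19%. SB Kac peaks held these 4 words in 15.2%, 17.4%, 16.5% and 4.09%, and RefSeq promoters in 10.3%, 13.1%, 14.03% and 3.42%. The AP-1 word TGANTCA was in 10.7% and 9.16%, with a difference of 1.53 points whose interval (-0.155 to 3.45) included 0. The HNF4 word CAAAGTCCA, of a factor of liver cells, was in 8 of 1179 Kac-free peaks and 0.350% of the others. Telomere, REST and GGAA repeat words were in 0 of 1179 Kac-free peaks, and CA repeats in 4. These shares move with base composition and were not corrected for it.

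The distance from a Kac-free Kbz peak to the nearest Kac peak was 14802 bp at the median (quartiles 3174.5 to 87855.5). It was up to 1 kb for 113 peaks and up to 10 kb for 520 (44.1%, 41.3 to 47.0), while 58 lay beyond 500 kb. The nearest Kac peak belonged to the SB list for 40.8% (38.0 to 43.6) of them. Promoters made up 36.3% (28.0 to 45.5) of those within 1 kb of Kac, 33.9% from 1 to 10 kb, 17.6% from 10 to 100 kb and 7.35% (4.81 to 11.1) beyond. Median GC went from 48.7% to 39.7% over these steps, while median fold stayed between 2.93 and 2.96. The peaks just inside the rule lay 1 bp from Kac in an intron of the cation channel gene TRPC1 (chr3:142732724-142734095, fold 2.64), 7 bp away on chromosome X (chrX:116971275-116971567, fold 3.10) and 13 bp away on chromosome 17 (chr17:49899742-49900796, fold 2.76). Just outside it were Kbz peaks that shared 6, 7 and 8 bp with Kac, with folds of 2.90, 3.02 and 2.69.

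The peaks farthest from Kac lay near the centromeres of chromosomes 11 and 9. On chromosome 11 they lay 2466732 bp (chr11:50577256-50577590, fold 5.84) and 2284262 bp (chr11:50394786-50395115, fold 4.72) from it, and on chromosome 9 the distance was 2228736 bp (chr9:40991504-40991837, fold 2.97). The nearest protein-coding genes there were OR4C45, an olfactory receptor, and FOXD4L6, a forkhead gene with near-identical copies nearby.

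At promoters, 267 Kac-free Kbz peaks lay within 3 kb of a TSS of 333 genes, of which 192 were protein-coding. At a promoter, 157 of these 192 protein-coding genes had SB Kac and 161 had control Kac. A Kbz peak with Kac lay at a promoter of 132 of them. For 26 of the 192 no Kac peak lay at any promoter. The shares over all protein-coding genes are not given here, so these counts do not set the genes apart. The 6 strongest peaks that covered the TSS of a protein-coding transcript lay in ZNF846 (fold 4.32), SRP68 (4.23), TBC1D5 (3.86), ZNF536 (3.72), SNTG2 (3.15) and TTLL9 (3.14). ZNF846 and ZNF536 encode zinc finger proteins, SRP68 a protein of the signal recognition particle, TBC1D5 a regulator of RAB7, SNTG2 a syntrophin and TTLL9 a tubulin ligase-like protein. Of these, the ZNF846 peak had the highest GC, 69.7% over the peak, and lay 3046 bp from Kac.

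Of 19970 protein-coding genes, 646 had a Kac-free Kbz peak in the body or within 3 kb (3.23%), so lists of this size would hold few or none. Of 11 genes of benzoate activation and glycine conjugation (the ACSM and GLYAT families), 0 had a Kac-free Kbz peak 1 had Kbz at a promoter and 1 had Kac. Of 18 lysine deacylases, 18 had Kac at a promoter in each condition, 17 had Kbz, and 1 had a Kac-free Kbz peak, HDAC11, a class IV deacetylase (chr3:13495528-13495807, fold 3.45, 447 bp from Kac). Of the 4 genes RUNX1, RUNX2, RUNX3 and CBFB, only RUNX1 had such peaks. Of 8 sarcomeric myosin heavy chain genes, 1 had one, MYH13, a myosin of eye muscle (chr17:10371111-10371506, fold 4.17, 170 bp from Kac). Of 14 neuronal markers, 1 had one, the microtubule protein gene MAP2 (chr2:209687611-209688628, fold 2.78).

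The share of Kbz peaks that were Kac-free differed among chromosomes. It was 2.45% (1.77 to 3.37) on the gene-dense chromosome 19 and 3.13% (2.36 to 4.15) on chromosome 17. The highest shares were 8.14% (5.53 to 11.8) on chromosome 21, 7.36% (5.70 to 9.46) on X and 6.95% (5.32 to 9.02) on chromosome 20. Numbers ran from 12 peaks on chromosome 18 to 143 on chromosome 1.

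**Figure D5:**
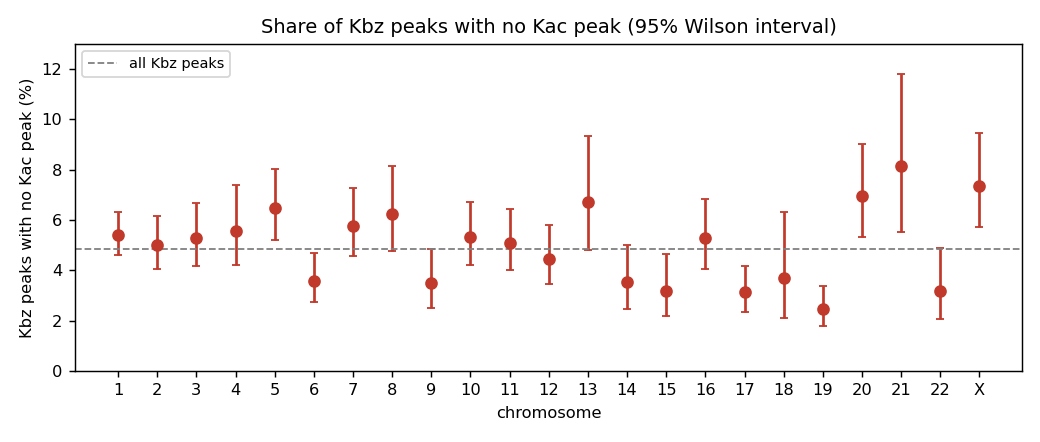
Share of the Kbz peaks of each chromosome that were Kac-free, with 95% Wilson intervals; the dashed line is the share over all Kbz peaks, 4.85%. Chromosome 19 is lowest at 2.45% and chromosome 21 highest at 8.14%.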

How the data were processed

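The lists of peaks from the SB Kbz, SB Kac and control Kac libraries were used. According to the methods and labels, the authors prepared chromatin with micrococcal nuclease, read 50 bp from 1 end of each fragment, mapped these reads to hg38 with Bowtie2 2.2.6, kept uniquely mapped reads, removed duplicates with SAMtools 0.1.19 and called peaks per library with MACS2 2.1.1 at an FDR of 0.01. The broad setting and the background track are not given in the sources used here. The deposited columns used are the fold, a linear ratio over background, and −log10 p and −log10 q, all averaged over the peak by the authors' peak caller. The highest deposited q was 0.0485 for Kbz, 0.0494 for SB Kac and 0.0487 for control Kac, so the lists reach beyond the stated FDR.

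Peaks on chromosomes 1 to 22 and X were kept, which dropped 3 peaks of the control Kac list. A Kbz peak was Kac-free when it shared 0 bp with both Kac lists. Promoters reached 3 kb to each side of any GENCODE 44 TSS; exon, intron and intergenic followed in that order. Sequence came from hg38, and promoter sequences for word counts from RefSeq. Shares carry Wilson 95% intervals, differences Newcombe 95% intervals; no test between groups was possible with 1 library per group. The overlap code recovered 1000 of 1000 simulated peaks planted on Kac and called 0 of 1000 planted beside it, and bedtools 2.31.1 found the same 1179 peaks. Named peaks are the 12 with the highest fold other than 1, the 6 strongest over a protein-coding TSS, the 3 farthest from Kac, the 3 longest, the 3 nearest to Kac on each side of the rule, the 3 densest runs, those of the 5 genes with most peaks, and those in or within 3 kb of a listed gene; a few of these are not reported here. Members, lists and words were chosen with earlier results of these data known. Alternatives were a −log10 q of at least 2, 1 Kac list, other overlap and promoter rules, and other word counts. Calculations used Python 3.11.15, numpy 2.4.6, pandas 2.3.3, scipy 1.17.1, pysam 0.24.0, matplotlib 3.10.9 and samtools 1.23.1.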

Additional observations from a re-analysis of the deposited data

How the results depend on the processing

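Of 52 recalculations under other settings, 44 planned and 8 added after seeing the data, 38 stayed inside the interval or quartiles of the reported value, or within 1.5 times the reported count. With Kbz peaks of −log10 q of at least 2 only, the 1179 Kac-free peaks became 559, their promoter share went from 22.6% to 19.7% and their share with 5 or more TAATTA from 1.78% to 3.76%. The promoter share was 25.2% with the SB Kac list only, 29.2% with the control Kac list only and 26.3% when less than 50% of the peak had to be under Kac. It was 11.2% with a promoter window of 1 kb and 15.4% with protein-coding TSSs only. With the control Kac list only, the intergenic share was 27.4% and the share within 10 kb of Kac 47.3%. The latter was 53.8% under the 50% rule, 38.2% when peaks within 1 kb of Kac were left out and 9.58% for a distance of 1 kb. With 10 or more copies of TAATTA the share of array peaks was 0.679%, against 0.00865% of the other Kbz peaks, and with 3 or more it was 2.12% against 1.17%, a much smaller contrast. The cause of these moves was not tested beyond the changed rule itself. Median length and median GC stayed inside their quartiles in each alternative run. The planned share of bases in soft-masked repeats was not run, since the reference used carries no repeat mask. No paired analysis was possible because the 6 groups held 1 library apiece, which also left no replicate to leave out. Depth was unknown, so a Kac signal below the threshold cannot be told apart from none.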

Other observations

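The Kac-free Kbz peaks were also compared with the mitochondrial genome and with a filter for simple sequence. By BLAST at an e-value of 1e-05, 0 of 1179 matched mitochondrial DNA. Bases of low complexity by the DUST filter made up 3.18 of every 100 bases in Kac-free and 4.74 in other Kbz peaks. Peaks with over 25% of such bases were 32 of 1179 (2.71%) and 301 of 23129 (1.30%).

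Array peaks in introns of ARHGAP6 (chrX:11591278-11591580, fold 3.88) and RERG (chr12:15201426-15201776, fold 3.76), a GTPase-activating protein and a Ras-like GTPase, held 6 and 15 copies. An intergenic array peak on chromosome 21 (chr21:21559239-21559623, fold 4.40) lay 504014 bp from Kac, the farthest of the 21. These were chosen after their values were seen.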
